A study of Homo sapiens with 6 samples.

Results

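Most genes described here encode the nuclear pore complex and the carriers and regulators that move proteins and RNA through it. A few others are paralogues, pseudogenes or non-coding transcripts with a like symbol, and they are counted among the transport genes. All were read in HEK293 cells treated with an siRNA against BAHD1 or a control siRNA. The genes were chosen by symbol and not by their values: every probe set annotated to a single gene whose symbol begins with NUP and digits, KPNA, KPNB, IPO, XPO or TNPO and a digit, or is CSE1L, RAN, RANBP1, RANBP2, RANGAP1, RCC1, TPR, AAAS, POM121, NDC1, SEH1L, RAE1 or NUTF2, with a single exportin gene left out. This gave 61 genes of the 19775 on the array that have a probe set of their own, with 170 of the 54613 probe sets other than controls. No probe set belonged to NUTF2 alone, and 8 probe sets shared between a transport gene and another gene were left out.

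HEK293 is a human embryonic kidney line transformed with adenovirus DNA, and all cells studied were of this line. One group of 3 cultures received BAHD1 siRNA and the other group of 3 received control siRNA, each for 72 h, and each culture gave 1 array of poly(A)-primed, biotin-labelled RNA. Both groups carried an siRNA and the lipid reagent used to deliver it, so the comparison holds no untransfected cells. The siRNA lowers a transcript and does not delete the gene, the siRNA sequences were not analysed here, and RNA and not protein was measured. The product of BAHD1 binds chromatin through its bromo-adjacent homology domain and takes part in gene silencing and heterochromatin formation.

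The nuclear pore complex is a ring-shaped channel through the nuclear envelope, built from nucleoporins. Outer-ring and inner-ring subunits form the scaffold, a few membrane proteins anchor it, and nucleoporins rich in phenylalanine-glycine repeats fill the channel and carry the binding sites for transport receptors. Importins load cargo in the cytoplasm and release it in the nucleus when they bind Ran with GTP, whereas exportins bind cargo together with Ran-GTP and release it in the cytoplasm. RCC1 charges Ran with GTP on chromatin and RANGAP1 triggers hydrolysis on the cytoplasmic side, and this gradient gives transport its direction.

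BAHD1 itself, the gene targeted, had signals of 36.6, 46.8 and 41.2 in BAHD1 siRNA cultures, against 62.9, 55.7 and 46.7 in control siRNA cultures. The highest BAHD1 siRNA array exceeded the lowest control array by a small margin, so the groups overlapped. The level with BAHD1 siRNA was 76.0% of the control level, a log2 fold change of -0.40 (SE 0.15, n = 3 per group, one prior). Neither fit described below called it (limma, adjusted p = 0.251 in both), and an exact two-sided permutation test gave p = 0.2, where 0.1 is the smallest p that 3 against 3 can give. The knockdown measured on the array was therefore small, and directions below rest on the labels.

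All values are signals on a linear scale, and log2 fold changes are differences of mean log2(signal + 1), BAHD1 siRNA minus control siRNA. Median signals of the arrays were 15.9 to 19.5, and arrays of the same group correlated at 0.974 to 0.978, against 0.966 to 0.972 between groups. The 24 probe sets for poly(A) RNA spiked into the samples averaged 9.02 to 9.32 on the log2 scale in BAHD1 siRNA arrays, against 8.55 to 8.76 in control arrays, a difference of 0.587 whose part in the results below was not tested. Of the line's own markers, 6 of 7 had a measured probe set, led by VIM at 2653 to 3679 and NEFL at 540 to 841. PAX2 at 24.3 to 46.1 and KRT8 at 26.2 to 40.7 were dim, and NEFH lay at 0.4 to 6.2. The summed signal of the list was 4120 to 4401 with BAHD1 siRNA, against 4458 to 4915 with control siRNA. Most of this sum was VIM, at 2743, 2806 and 2653 with BAHD1 siRNA, against 3457.5, 3679 and 3106 with control siRNA. The lower sum thus reflects VIM and not the list as a whole. The markers moved in both directions: of the list's 8 measured probe sets, VIM was called lower at -0.32 in the intensity-trend fit described below, and NEFM at 0.58 and 2 probe sets of NEFL at 0.37 and 0.75 were called higher. PAX2 was higher by 0.65 without overlap between groups and without a call. The part of these shifts in the results was not tested. Of 9 markers of blood, endothelium, liver and muscle, only PECAM1 had a measured probe set, at 13.8 to 20.1.

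A probe set was counted as measured when its signal exceeded 17.9 in at least 3 of the 6 arrays. That left 146 probe sets of 56 of the 61 genes, and none of them had passed through 1 group alone. The 5 genes without a measured probe set were IPO11, an import receptor, NUP210L, a paralogue of a membrane nucleoporin, and the non-coding loci NUP210P1, IPO9-AS1 and NUP133-DT, whose highest signals were 15.1, 10.9, 22.5, 22.4 and 10.1. Spread between replicate cultures was small in the measured transport probe sets, with a median within-group SD of 0.119 on the log2 scale, against 0.169 over all measured probe sets. The transport probe sets were also brighter, as given below, and the part of brightness in this difference in spread was not tested.

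The transport genes as a whole did not move one way after BAHD1 siRNA. Taking the brightest measured probe set of each gene, 26 genes had a lower and 30 a higher level with BAHD1 siRNA, and the median log2 fold change was 0.02, as it was over all 12529 measured genes. The median size of the change over the same probe sets was 0.15 in the transport genes, against 0.16 over all genes. In a culture, fewer cells of one state and less RNA per cell cannot be told apart in such values.

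In a limma fit with one variance prior for all probe sets, no transport probe set passed an adjusted p of 0.05 (0 of 146), and the share called over all 27458 probe sets was 0%. The smallest adjusted p among transport genes was 0.112, and 30 of the 146 (20.5%) had an unadjusted p under 0.05, against 4843 (17.6%) of all probe sets. In a second limma fit whose prior follows the mean signal, called the intensity-trend fit here, 11 of the 146 (7.53%) passed, against 4.45% of all probe sets. Of these, 9 probe sets of 7 genes were lower with BAHD1 siRNA (6.16%, against 2.28% of all), and 2 probe sets of 2 genes were higher (1.37%, against 2.17% of all). The verbs rose and fell refer to this second fit throughout, SEs below are from it, and each adjusted p is given for it first and then for the fit with one prior. Without regard to any fit, the 3 BAHD1 siRNA arrays all lay below the 3 control arrays for 25 transport probe sets (17.1%, against 12.2% of all) and above them for 22 (15.1%, against 13.4% of all). A stricter signal minimum of 99.9 was exceeded by 78.8% of transport probe sets and 50.5% of all measured ones, and the part of brightness in these shares was not tested. Setting the array medians equal lowered the median log2 fold change to -0.12 in transport genes and -0.113 over all genes. The intensity-trend fit then called 19 transport probe sets lower (13%, against 1515 or 5.52% of all) and 0 higher (0%, against 192 or 0.699% of all). Quantile normalisation gave 8 lower (5.48%, against 2.17% of all) and 4 higher (2.74%, against 2.3% of all). The share of transport probe sets called higher thus lay below that of all probe sets in the data as deposited. After quantile normalisation it lay above that of all probe sets.

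**Figure D1:**
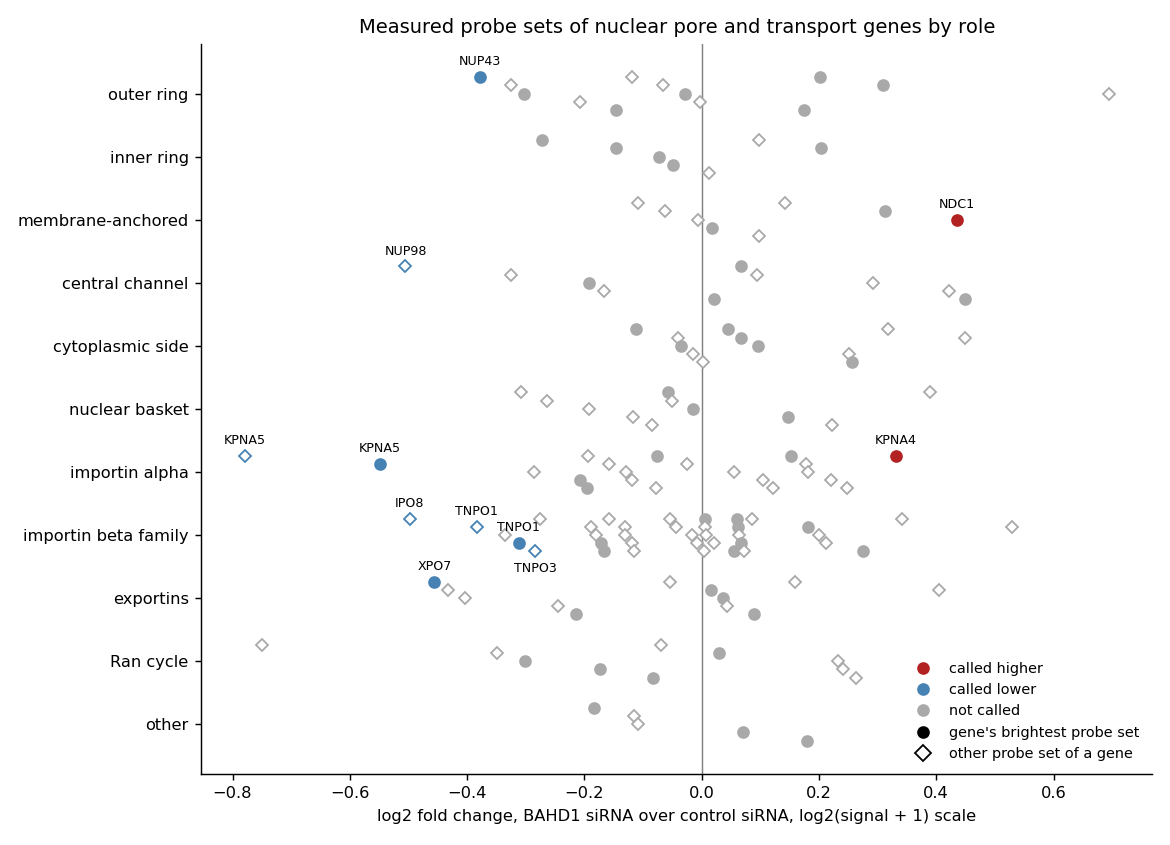
Log2 fold change (horizontal axis, BAHD1 siRNA over control siRNA, on the log2(signal + 1) scale) of the 146 measured probe sets, arranged by the role of the gene. Filled circles are each gene's brightest probe set and open diamonds its others; 9 probe sets called lower in the intensity-trend fit are blue, 2 called higher are red, and every role holds probe sets on both sides of 0.

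Of the 9 genes with a call, 7 fell and 2 rose. Over all probe sets, 493 of 13233 symbol entries had a call lower and 516 a call higher. Those entries include symbols shared by several genes. Carriers, that is importins and exportins, gave 8 of the 11 called probe sets (8 of 70, 11.4%, against 4.45% of all probe sets). Nucleoporins gave 3 (3 of 61, 4.92%), close to the share over all probe sets. The difference between carriers and nucleoporins was not tested. The genes are taken in turn from the carriers to the pore.

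KPNA5, an importin alpha adaptor that binds the classical nuclear localisation signal, fell most among the genes with a call. Its brightest probe set, 227934_at, had signals of 340.3, 401 and 322 with BAHD1 siRNA, against 499.8, 512 and 538 with control siRNA. A further one, 206241_at, had 61.9, 64.2 and 61.4 with BAHD1 siRNA, against 108, 99.8 and 117 with control siRNA. In both, the 3 BAHD1 siRNA arrays lay well below all control arrays, at 68.4% and 58.3% of the control level. Their log2 fold changes were -0.55 (SE 0.09) and -0.78 (SE 0.13), and limma's intensity-trend fit gave adjusted p = 0.00931 and 0.011, where the fit with one prior gave 0.141 and 0.112. The gene's other probe set, 229317_at, overlapped between groups, with a log2 fold change of -0.12.

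KPNA4, another importin alpha adaptor, went the other way. Probe set 225268_at had signals of 836, 821 and 967 with BAHD1 siRNA, against 684, 659 and 739 with control siRNA, so that every BAHD1 siRNA array lay above every control array. The log2 fold change was 0.33 (SE 0.08, limma adjusted p = 0.0361, or 0.204 with one prior). This call was lost when the array medians were set equal, where the difference was 0.19 and the adjusted p 0.322. Its 3 other probe sets had log2 fold changes of 0.18, 0.12 and -0.19, so the probe sets of the gene did not share a direction.

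Among the remaining importin alpha genes no probe set was called. The brightest of KPNA3 had 288, 270.3 and 273 with BAHD1 siRNA, against 317, 316 and 319 with control siRNA, without overlap but with a log2 fold change of only -0.20 (limma adjusted p = 0.182, or 0.27 with one prior). KPNA1, KPNA2 and KPNA6 had log2 fold changes of 0.15, -0.21 and -0.08 in their brightest probe sets, and the 2 probe sets of KPNA2, the adaptor commonly abundant in dividing cells, had opposite signs. Of the 6 measured importin alpha genes, 4 were lower and 2 higher, with a median of -0.14.

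Importin beta family receptors carry cargo directly or through importin alpha. TNPO1, or transportin, which imports many RNA-binding proteins, fell in 2 of its 7 measured probe sets. The brightest, 221829_s_at, had signals of 905, 864 and 827 with BAHD1 siRNA, against 1027, 1078 and 1117 with control siRNA. The dimmest, 225766_s_at, had 278, 292 and 243 with BAHD1 siRNA, against 387, 323 and 350.8 with control siRNA. Neither overlapped between groups, and the log2 fold changes were -0.31 (SE 0.07, limma adjusted p = 0.0248, or 0.18 with one prior) and -0.38 (SE 0.10, limma adjusted p = 0.0443, or 0.196 with one prior). The 5 others overlapped and ranged from -0.19 to 0.004, so that 6 of 7 were lower with BAHD1 siRNA.

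TNPO3, which imports splicing factors rich in serine and arginine, fell in 1 of 3 probe sets. That probe set, 214550_s_at, had 389, 393 and 392 with BAHD1 siRNA, against 489, 492 and 451 with control siRNA, with no overlap and very little spread among the BAHD1 siRNA arrays (log2 fold change -0.28, SE 0.07, limma adjusted p = 0.0475, or 0.186 with one prior). After quantile normalisation its adjusted p was 0.062. Its brightest probe set, 212318_at, had a log2 fold change of 0.01, and 212317_at one of 0.53 with overlap, so the gene as a whole had no shared direction.

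IPO8, an import receptor related to IPO7, was likewise split. Probe set 205701_at had 94.2, 103 and 90.9 with BAHD1 siRNA, against 144, 151 and 115 with control siRNA, and fell without overlap (log2 fold change -0.50, SE 0.13, limma adjusted p = 0.0496, or 0.173 with one prior). The gene's brightest probe set, 225528_at, had 833, 878 and 743 with BAHD1 siRNA, against 794, 828 and 737 with control siRNA, and overlapped, with a log2 fold change of 0.05.

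The other importin beta family members had no call. IPO13, a receptor that works in both directions, had 98.4, 111 and 102 with BAHD1 siRNA, against 79.0, 86.6 and 90.5 with control siRNA, higher in all 3 arrays by 0.28 on the log2 scale (SE 0.13, limma adjusted p = 0.234, or 0.232 with one prior). IPO7 had 3 of 4 probe sets lower without overlap, at -0.17, -0.16 and -0.28, and 0.01 in the other. For KPNB1, the receptor that pairs with importin alpha, the 6 measured probe sets ranged from -0.13 to 0.20. IPO4, IPO5, IPO9 and TNPO2, the last a close relative of TNPO1, were at 0.18, 0.07, -0.17 and 0.06 in their brightest probe sets. Of the 10 measured genes, 3 were lower and 7 higher in their brightest probe set, with a median of 0.06.

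Among exportins, XPO7, which carries out protein export and has also been linked to import, gave the only call. Probe set 212166_at had signals of 408, 409.6 and 398 with BAHD1 siRNA, against 592, 504 and 578 with control siRNA. The BAHD1 siRNA arrays lay close together and all below the controls, at 72.9% of their level (log2 fold change -0.46, SE 0.08, limma adjusted p = 0.0122, or 0.143 with one prior). The gene's other measured probe set, 208459_s_at, had 157, 127 and 118 with BAHD1 siRNA, against 197, 179 and 166 with control siRNA. It also showed no overlap and had a like difference of -0.43, with an adjusted p of 0.0678.

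XPO6, which exports actin with profilin, gave opposite readings without overlap in either. Probe set 211982_x_at had 376, 397 and 345 with BAHD1 siRNA, against 476, 407 and 416 with control siRNA, a log2 fold change of -0.21 (SE 0.09, limma adjusted p = 0.183, or 0.342 with one prior). Probe set 214784_x_at had 282, 324 and 320.2 with BAHD1 siRNA, against 277, 216 and 209.5 with control siRNA, a log2 fold change of 0.41. The suffix of both marks probes that can match other transcripts. XPO1, the main receptor for leucine-rich export signals, had a log2 fold change of 0.09 in its brightest probe set and -0.40 in a dimmer one, 235927_at, which had 81.8, 81.9 and 78.7 with BAHD1 siRNA, against 106, 108 and 107 with control siRNA. CSE1L, which returns importin alpha to the cytoplasm, had 0.04, and XPO4 had 0.02.

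In the Ran cycle no probe set was called, although 3 of 4 genes were lower in the brightest probe set (median -0.13). RANGAP1, the activating protein of the Ran GTPase, had 518, 433 and 472 with BAHD1 siRNA, against 646, 533 and 575 with control siRNA. The groups did not overlap, and the log2 fold change was -0.30 (SE 0.09, limma adjusted p = 0.0784, or 0.26 with one prior), with its 2 other probe sets at -0.07 and -0.35. RANBP1, a cofactor of RANGAP1, had 3456, 3245 and 3111 with BAHD1 siRNA, against 3907, 3602 and 3556 with control siRNA, a log2 fold change of -0.17 (SE 0.07, limma adjusted p = 0.173, or 0.361 with one prior). Its other probe sets were far dimmer and had opposite signs. Of these, 202482_x_at was at -0.75 (SE 0.30) without overlap, and 221915_s_at at 0.26 (SE 0.27) with overlap. RAN was at -0.08 in its brightest probe set and 0.23 in the other, and RCC1 at 0.03 and 0.24.

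Within the pore, the outer ring gave 1 call. NUP43, a beta-propeller subunit of the Y-shaped complex, had signals of 786, 699 and 709 in probe set 219007_at with BAHD1 siRNA, against 1006, 916 and 929 with control siRNA. All BAHD1 siRNA arrays lay below all controls, at 76.9% of their level (log2 fold change -0.38, SE 0.07, limma adjusted p = 0.0163, or 0.166 with one prior). Its other probe set overlapped, at -0.21. NUP160, a large scaffold subunit of the same complex, had 537, 539.6 and 575 with BAHD1 siRNA, against 404, 435 and 497 with control siRNA, and lay above the controls in all 3 arrays by 0.31 (SE 0.09, limma adjusted p = 0.0569, or 0.226 with one prior). The 7 subunits taken here split into 4 lower and 3 higher in their brightest probe set, with a median of -0.03. SEC13, a further subunit that the symbol rule did not take, was at -0.30 without overlap and without a call (intensity-trend fit of limma, adjusted p = 0.0661). NUP107, NUP133 and NUP85, also of the scaffold, were at -0.15, -0.03 and -0.30, and NUP37 and SEH1L, beta-propeller subunits like NUP43, at 0.20 and 0.17.

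The inner ring had no call, with 4 of 5 genes lower and a median of -0.07. NUP188, a large scaffold subunit, had 286, 303 and 274 with BAHD1 siRNA, against 370.4, 384 and 294 with control siRNA, overlapping at 1 control array, with a log2 fold change of -0.27 (SE 0.10, limma adjusted p = 0.156, or 0.325 with one prior). NUP35, which bridges the ring to the membrane, had 684, 724 and 657 with BAHD1 siRNA, against 607, 599 and 587 with control siRNA. It was higher in all BAHD1 siRNA arrays, with a log2 fold change of 0.20 (SE 0.07, limma adjusted p = 0.115, or 0.276 with one prior). The scaffold subunits NUP155, NUP205 and NUP93 were at -0.15, -0.05 and -0.07.

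NDC1, a transmembrane nucleoporin needed for pore assembly, was the only pore gene that rose. Probe set 234672_s_at had signals of 1149.5, 1060 and 1091 with BAHD1 siRNA, against 717, 813 and 923 with control siRNA. The control arrays spread more widely than the BAHD1 siRNA arrays, and the groups did not overlap (log2 fold change 0.43, SE 0.09, limma adjusted p = 0.0178, or 0.175 with one prior). With array medians set equal the difference was 0.30 and the adjusted p 0.121. The other probe set was higher too, by 0.14. POM121, a further membrane nucleoporin, was dim, with 18.2, 20.5 and 42.9 with BAHD1 siRNA, against 9.9, 27.6 and 29.3 with control siRNA. It overlapped widely (log2 fold change 0.31, SE 0.44, limma adjusted p = 0.729, or 0.765 with one prior), and its sign turned when BAHD1 siRNA replicate 3 or control siRNA replicate 1 was left out (-0.06 and -0.16). NUP210 was at 0.02.

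In the central channel, NUP98, a repeat-rich nucleoporin that binds RAE1, fell in 1 of 3 probe sets. That one, 203195_s_at, had 130, 108 and 129.9 with BAHD1 siRNA, against 198, 166 and 160.3 with control siRNA, with no overlap (log2 fold change -0.51, SE 0.12, limma adjusted p = 0.0367, or 0.171 with one prior). The other 2 were lower as well, at -0.19 and -0.17, but overlapped between groups. The brightest, 203194_s_at, had 256, 199 and 185 with BAHD1 siRNA, against 278, 259 and 196 with control siRNA (SE 0.14, limma adjusted p = 0.478, or 0.614 with one prior). NUP58, a partner of NUP54 and NUP62, had 124, 146 and 160.4 with BAHD1 siRNA, against 84.8, 109 and 122 with control siRNA. It lay higher in all BAHD1 siRNA arrays by 0.45 (SE 0.15, limma adjusted p = 0.107, or 0.257 with one prior), while one of its 3 dimmer probe sets was at -0.33. NUP54 and NUP62 were at 0.07 and 0.02.

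On the cytoplasmic side and in the nuclear basket no probe set was called. RANBP2, which forms the cytoplasmic filaments and has close paralogues, had 624, 613 and 590.5 with BAHD1 siRNA, against 439, 504 and 599 with control siRNA, overlapping at 1 control array (log2 fold change 0.26, SE 0.10, limma adjusted p = 0.158, or 0.356 with one prior). Of its other probe sets, 2 were at 0.32 and 0.25 and 1 showed almost no difference. NUP214, which docks export complexes, had 85.7, 84.5 and 103 with BAHD1 siRNA, against 98.9, 102 and 93.3 with control siRNA, overlapping, at -0.11 (SE 0.13, limma adjusted p = 0.669, or 0.613 with one prior). NUP88, the partner of NUP214, was at 0.04, NUP42 at 0.07, AAAS at 0.10 and the mRNA export factor RAE1 at -0.04. In the basket, NUP153, which docks import complexes, had 1148, 1236 and 1379.8 with BAHD1 siRNA, against 1116, 1154 and 1120.5 with control siRNA, overlapping, at 0.15 (SE 0.07, limma adjusted p = 0.279, or 0.469 with one prior). NUP50, a cofactor that helps unload importin alpha, had 811, 791 and 844 with BAHD1 siRNA, against 891, 767 and 894 with control siRNA, overlapping, at -0.06 (SE 0.08, limma adjusted p = 0.708, or 0.779 with one prior). All 4 measured NUP50 probe sets were lower, 2 of them without overlap, at -0.26 and -0.31, and TPR, the basket's scaffold, was at -0.01. Outside these roles, the pseudogene IPO5P1, the paralogue NUP62CL and the transcript NUP50-DT had no call, at 0.07, -0.18 and 0.18.

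**Figure D2:**
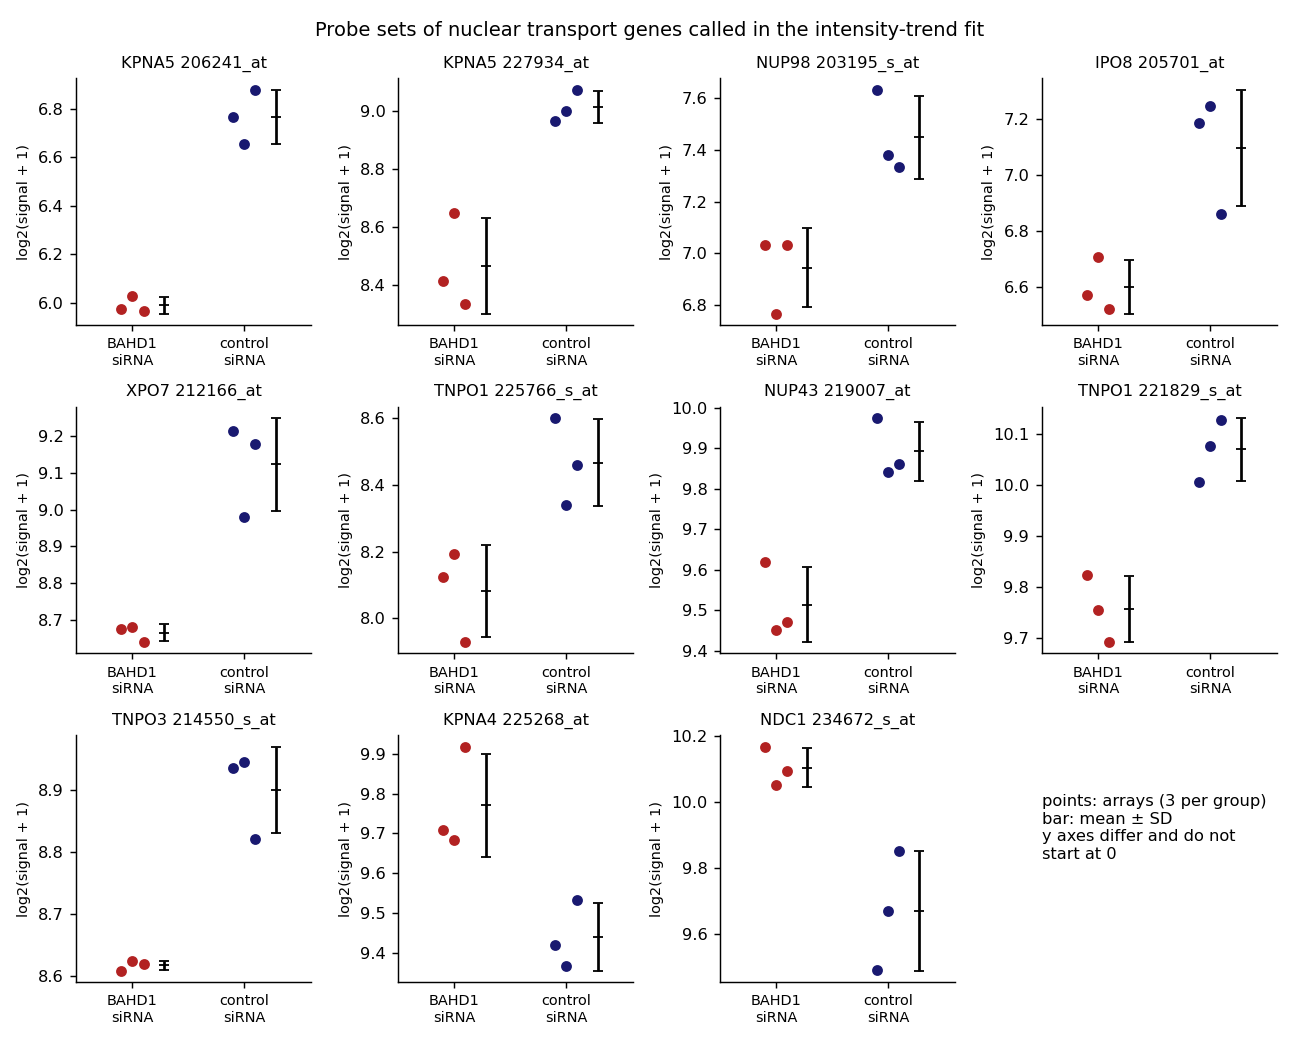
Log2(signal + 1) of the 11 called probe sets in every array, BAHD1 siRNA at left in red and control siRNA at right in dark blue, with the mean and SD beside the points (n = 3 per group). No panel shows overlap between groups, 9 panels are lower with BAHD1 siRNA, and KPNA4 and NDC1 are higher.

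Probe sets of one gene often differed in sign, and the same count was not made over all genes. Of the 43 transport genes with more than 1 measured probe set, all probe sets shared a sign in 15 and differed in 28. Of the 9 genes with a call, 4 (TNPO1, TNPO3, IPO8 and KPNA4) had another probe set of the opposite sign. For TNPO1 this was only 225765_at, at 0.004 (SE 0.10), which is close to no difference. KPNA5, XPO7, NUP43, NUP98 and NDC1 had measured probe sets of one sign throughout. Below the signal minimum, XPO7 240168_at lay higher in all BAHD1 siRNA arrays. It had 12.3, 12.7 and 15.2 with BAHD1 siRNA, against 1.2, 3.6 and 6.3 with control siRNA.

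**Figure D3:**
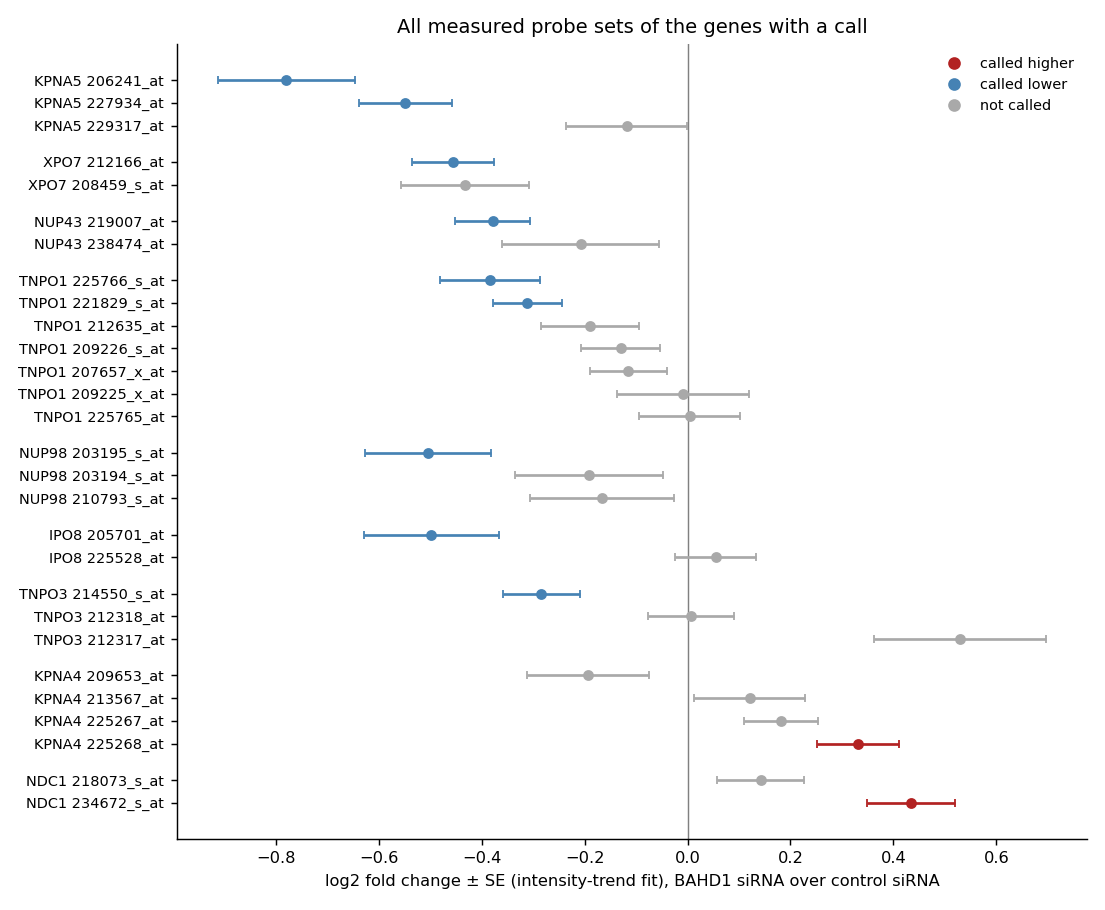
Log2 fold change with SE (bars, intensity-trend fit) of every measured probe set of the 9 genes with a call, BAHD1 siRNA over control siRNA. KPNA5, XPO7, NUP43 and NUP98 lie left of 0 and NDC1 right of 0 in all their probe sets, whereas TNPO1, TNPO3, IPO8 and KPNA4 lie on both sides.

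The calls differed in how far they rested on single arrays. Both called probe sets of KPNA5 and that of XPO7 passed whichever array was left out, with adjusted p up to 0.0402, 0.0419 and 0.0499 in the intensity-trend fit of limma. NUP43 passed in 3 of 6 such fits and missed without BAHD1 siRNA replicate 2 or 3 or control siRNA replicate 1. NDC1, KPNA4, NUP98 and the brighter TNPO1 probe set passed in 2 of 6, without BAHD1 siRNA replicate 1 or control siRNA replicate 3, and missed in the 4 others. TNPO3 and IPO8 passed in 1, without control siRNA replicate 3, and the dimmer TNPO1 probe set in 0. The highest adjusted p was 0.168, and every log2 fold change of the 11 kept its sign.

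**Figure D4:**
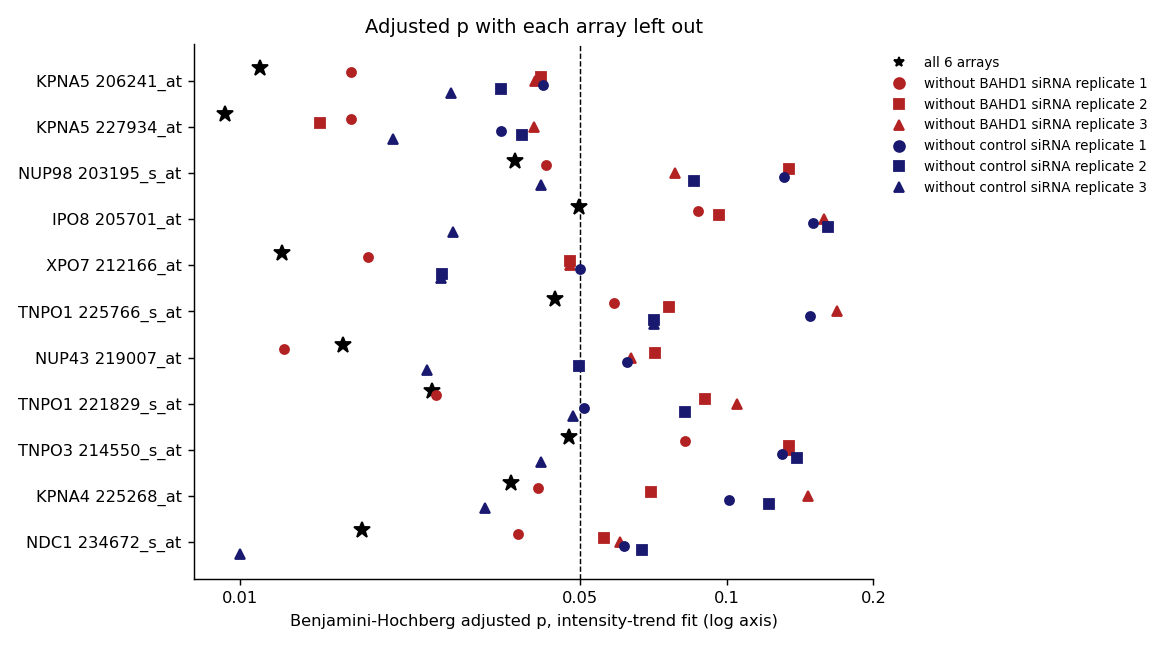
Benjamini-Hochberg adjusted p (log axis) of the 11 called probe sets in the intensity-trend fit with all 6 arrays (stars) and with each array left out (red for BAHD1 siRNA replicates, dark blue for control siRNA replicates). The dashed line marks 0.05; only the KPNA5 and XPO7 points all lie at or left of it.

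With the stricter signal minimum, the fit with one prior called 10 transport probe sets of 115 (8.7%), against 8.27% of all probe sets tested there. Of these, 8 were lower and 2 higher, where the split by direction over all probe sets was not counted. Of the same 10, 8 were also called in the intensity-trend fit. The other two were XPO1 235927_at, at -0.40, and IPO9 242561_at, at 0.34, which had 129, 139 and 136 with BAHD1 siRNA, against 112, 106 and 102 with control siRNA, and no overlap (limma with one prior, adjusted p = 0.0200 and 0.0350). IPO9 is an import receptor for histones, and its brightest probe set was lower and not higher. Of the calls in the intensity-trend fit, KPNA4 225268_at and TNPO3 214550_s_at were tested here and not called. KPNA5 206241_at did not pass the stricter minimum.

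Genes of the same pathway that the symbol rule did not take had mixed directions as well. Of 51 such genes for RNA export, further pore and carrier proteins and the nuclear envelope, 47 were measured with 91 probe sets, of which 4 were lower and 3 higher in the intensity-trend fit (7.69%, against 4.45% of all), with a median log2 fold change of 0.01. In RNA export, NXT2, a cofactor of the mRNA export receptor, fell by 0.57 on the log2 scale. CHTOP, of the complex that couples transcription to export, fell by 0.34 and MCM3AP, a scaffold for mRNA export, by 0.33, whereas the cap-binding subunit NCBP2 rose by 0.34 in 1 of 2 probe sets. That one had 880, 862 and 823 with BAHD1 siRNA, against 654, 676 and 698 with control siRNA, and the other was at -0.13. The falls of NXT2 and CHTOP were likewise in 1 probe set each, with their brightest at -0.19 and -0.10, and MCM3AP's 2 others were at -0.09 and 0.11. HIKESHI, a carrier of heat-shock proteins, rose by 0.43 in its dimmer probe set, while its brightest was at -0.07 with overlap. In the envelope, TOR1AIP1, an inner membrane protein, fell by 0.28 in its brightest probe set, and its 3 others were lower without a call. The lamin gene LMNA rose by 1.02 in 1 probe set whose suffix marks cross-matching probes, with 103, 99.9 and 99.7 with BAHD1 siRNA, against 57.9, 54.9 and 38.0 with control siRNA. Its other 4 measured probe sets had no call, at -0.60, -0.001, 0.02 and 0.66, so LMNA had no shared direction.

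The sequence before the start site was examined for letters that genes of the group share. RefSeq promoter windows of GRCh38.p14, cut to the 250 bases before each start, were held for 53 of the 61 genes (68 windows) and 5 of the 9 genes with a call. KPNA4, KPNA5, NUP43 and XPO7 were among those with no entry. These windows, of 4 genes with a call and a match, are printed 5′ to 3′ on the gene's strand, with matches in capitals to GGGCGG (GC box), CCAAT or CCGGAAG (ETS core) on either strand. NUP98 has 2 annotated starts a few bases apart and the upstream one is shown.
TNPO1, chr5:72816411-72816660, plus strand: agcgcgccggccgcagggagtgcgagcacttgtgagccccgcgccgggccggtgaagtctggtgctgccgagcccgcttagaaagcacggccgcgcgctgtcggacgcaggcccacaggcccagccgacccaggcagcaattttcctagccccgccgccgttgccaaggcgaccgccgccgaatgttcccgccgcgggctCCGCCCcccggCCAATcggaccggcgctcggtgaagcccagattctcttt
TNPO3, chr7:129055112-129055361, minus strand: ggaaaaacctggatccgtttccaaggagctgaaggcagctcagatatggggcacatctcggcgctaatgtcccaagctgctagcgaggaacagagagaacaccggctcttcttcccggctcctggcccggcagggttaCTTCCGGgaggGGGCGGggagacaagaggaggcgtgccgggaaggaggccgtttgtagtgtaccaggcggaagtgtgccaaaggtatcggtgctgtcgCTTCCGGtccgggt
NDC1, chr1:53838297-53838546, minus strand: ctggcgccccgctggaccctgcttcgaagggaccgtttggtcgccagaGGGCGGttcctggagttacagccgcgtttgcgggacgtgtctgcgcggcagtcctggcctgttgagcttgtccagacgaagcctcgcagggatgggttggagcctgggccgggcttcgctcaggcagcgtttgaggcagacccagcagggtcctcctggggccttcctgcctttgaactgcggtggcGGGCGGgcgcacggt
NUP98, chr11:3797555-3797804, minus strand: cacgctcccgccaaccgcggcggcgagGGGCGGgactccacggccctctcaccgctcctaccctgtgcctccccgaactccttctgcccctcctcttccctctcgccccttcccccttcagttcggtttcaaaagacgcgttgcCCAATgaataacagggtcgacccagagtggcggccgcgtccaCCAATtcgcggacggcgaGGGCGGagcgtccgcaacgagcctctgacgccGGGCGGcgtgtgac

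NDC1, which rose, held 2 GC boxes, and NUP98, which fell, held 3 GC boxes and 2 CCAAT boxes. TNPO1 held 1 of each, and its second annotated start had none. TNPO3 held 1 GC box and 2 ETS cores, and the window of IPO8 held no match to any motif searched. No motif therefore stood in every window of the genes with a call. Over all transport windows, GGGCGG stood in 50%, against 42.6% of all 35116 windows of the same length, and CCAAT in 41.2%, against 32%. CCGGAAG stood in 22.1%, against 8.52%, the palindrome TGACGTCA (CRE) in 7.35%, against 1.65%, GCATGCGC (NRF1-type) in 8.82%, against 2.63%, and TATAAA in 5.88%, against 10.7%. Median GC content was 62.2% in transport windows, against 58% in all windows, which include genes of every kind. These are matches of letters and not measured binding.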

How the data were processed

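Gene expression in 6 HEK293 cultures, 3 with BAHD1 siRNA and 3 with control siRNA, was read on Affymetrix arrays, 1 per culture. The values deposited by the authors are intensities on a linear scale, 1 per probe set and array. Every column had a mean of 100.01 once its top and bottom 2% were set aside. Per the submitters' processing notes GCOS and GCRMA were used, with no version or role, so the program that wrote the table is unknown here. No detection calls were read, so dim intensities have no stated background, and the number of arrays limits the precision.

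Groups and replicate numbers came from the sample titles. Control probe sets (62 of 54675) were left out. Gene names came from the platform annotation, and all 61 symbols matched the RefSeq table of GRCh38.p14. Log2(intensity + 1) was fitted over the 27458 measured probe sets in R 4.3.3 with limma 3.58.1, once with one variance prior and once with a robust prior following mean intensity, and p-values were adjusted over all of them by Benjamini-Hochberg. The fit with one prior is the primary one and called nothing. The plan set the other fit beside it. Genes given in full are BAHD1, those with a called probe set in either fit, and in each role the 2 with the smallest p in the fit with one prior; other genes are named with their differences. The genes, lists and tests were chosen with earlier results of these data known. The labels call the replicates biological but do not describe how the cultures were kept apart. Any 2 arrays shared at most 0.291% of their measured values, so none was taken as a copy.

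Alternatives were leaving out each array, a replicate block, array weights, a pseudocount of 16, centred array medians, quantile normalisation, no filter, a filter at the 75th percentile (a signal of 99.9), and a gene's mean over its probe sets.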

Additional observations from a re-analysis of the deposited data

How the results depend on the processing

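The fit with one prior called 0 probe sets, and 0 of transport genes, in all settings tried but these: the stricter filter gave 1147 and 10, and leaving out 1 array gave 0 to 4 over all probe sets, with 4 without control siRNA replicate 2. The intensity-trend fit gave 1221 (4.45% of those tested) and 11 (7.53%). In that fit, no filter gave 398 (0.729%) and 5 (2.94%), and the stricter filter 1622 (11.7%) and 18 (15.7%). Centred array medians gave 1707 (6.22%) and 19 (13%). With single arrays left out it gave 197 to 1176 over all probe sets (0.742% to 4.36%) and 3 to 16 of transport genes (2.07% to 11%). The low counts over all probe sets were 197, 211, 293 and 273 without BAHD1 siRNA replicate 2 or 3 or control siRNA replicate 1 or 2. Whether the replicate numbers pair the cultures is not stated in the labels. Deviations of arrays with the same number correlated at 0.0101, 0.0102 and 0.0239, and 4 of 6 arrays correlated best with their own number. Correlations this weak do not settle the question. With the replicate block the intensity-trend fit called 1629 probe sets (5.93%) and 19 of transport genes (13%), and the fit with one prior 0. Of these 19, 13 were lower (8.9%, against 2.97% of all) and 6 higher (4.11%, against 2.96% of all). The median log2 fold change of transport genes was -0.00703 with the mean over a gene's probe sets, -0.12 with centred array medians and -0.013 to 0.0182 with single arrays left out, on either side of 0. The sign of POM121 turned, its range being -0.164 to 0.573 with single arrays left out (-0.0572 without BAHD1 siRNA replicate 3, -0.164 without control siRNA replicate 1). BAHD1 was below the stricter filter and has no value there. In the other settings its direction and lack of a call stayed as they were. The causes of these shifts were not tested. Signal over background is unknown here and limits what dim probe sets can show.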
